A study of Mus musculus with 16 samples.

Results

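Mouse embryos without the microRNA miR-302 were followed from whole embryos at E7.5 to sorted Wnt1-Cre cells at E8.5, using 6 RNA sequencing libraries of 16 in the series. All were labelled KO and C57BL/6. The E7.5 KO group was the 2 libraries KO1 and KO2, labelled as whole E7.5 embryo. The E8.5 KO group was the 4 libraries KO1 to KO4 of Wnt1-Cre+ cells, which were collected by fluorescence-activated sorting and labelled as neural crest before and after migration. The libraries were chosen by their genotype and stage labels, never by their values. Wild-type libraries, 2 of whole E7.5 embryos and 3 of sorted E8.5 cells, carry the same strain label and are used only to set the KO change beside the WT change. The labels give the genotype as KO only. They say neither how the locus was deleted, nor whether each library came from a separate animal, so p-values measure the spread between these libraries. The question asked of the 6 libraries is how far embryos without miR-302 leave the epiblast and gain neural and crest genes. Stage and cell population changed together, and no code number of the table columns is shared between the stages. A difference between E7.5 and E8.5 libraries may therefore come from age or from the dissection and sort, and these cannot be told apart.

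The epiblast is the pluripotent layer of the early embryo. During gastrulation its cells either enter the primitive streak and become mesoderm and endoderm or stay anterior and become ectoderm, and pluripotency factors are then shut off. The neural plate folds into the neural tube, and cells at its dorsal border are specified as neural crest, lose epithelial adhesion and migrate to form facial mesenchyme, peripheral neurons, glia and pigment cells. Wnt1-Cre marks the dorsal neural tube as well as the crest that leaves it, so the sorted cells hold both. The miR-302 cluster is abundant in epiblast and embryonic stem cells, where it favours the cell cycle and restrains differentiation genes.

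The mature miRNAs of the cluster are shown with their seed, bases 2 to 8, in capitals, because the seed sets which mRNAs they pair with. The sequences are RefSeq's on GRCm38.p6, and all lie on the plus strand of chromosome 3, within the span of Larp7 (chr3:127536714-127553349), which is on the minus strand. miR-302b-3p lies at chr3:127545275-127545297 and miR-302d-3p at chr3:127545665-127545687. miR-302c-3p at chr3:127545406-127545427 is listed as starting 1 base later, so its seed is read 1 base further along the same letters. miR-367-3p, at chr3:127545779-127545800 in the same cluster, has a different seed. miR-302a belongs to the cluster as well.
miR-302b-3p: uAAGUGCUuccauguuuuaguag
miR-302d-3p: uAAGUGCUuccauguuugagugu
miR-302c-3p: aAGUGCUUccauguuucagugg
miR-367-3p: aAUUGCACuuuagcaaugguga

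The label was checked first. The miR-302 precursor genes had 0 reads in each of the 6 KO libraries, where a count of 0 allows up to 3.69 reads (95% Poisson limit, counting error only). The same genes had 14 and 25 reads in the E7.5 WT libraries and 0 or 1 in the E8.5 WT libraries. The miR-367 precursor had 1 read in each of E7.5 KO1, E7.5 KO2 and E8.5 KO2, and 3 reads in E7.5 WT2 as its only reads in the wild type, so its loss is not shown. The count of the miR-302 precursors is therefore a check of the KO label at E7.5, while at E8.5 the wild type itself is at the floor. The counting is not stated to use strand, so reads of the precursors and of unspliced Larp7 cannot be told apart. Larp7, which codes for an RNA-binding protein of the 7SK complex, measured 120.5 and 130.4 CPM in E7.5 KO1 and KO2 and 238, 311, 253 and 226 CPM in E8.5 KO1 to KO4. It rose by 1.02 ± 0.20 on the log2 scale (adjusted p = 0.00501). The groups do not overlap, but the call is lost without either E7.5 library.

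Here CPM is a count rescaled to a common library size after correcting for composition, and each log2 change is the difference of means of log2(CPM + 1), given ± SE, with p-values of limma adjusted over all genes tested. The scale understates the change of genes with few reads. Whole reads numbered 4912827 and 8815384 in the E7.5 KO libraries and from 9578177 to 13517860 in the E8.5 KO libraries. Of 13485 genes tested, 1736 rose (12.9%) and 2431 fell (18.0%) at an adjusted p of 0.05, of which 1238 and 1990 changed more than 2-fold. In 25.1% of genes every E8.5 library was above both E7.5 libraries, and in 27.6% every one was below. The median log2 change of all genes tested was 0.02. The first principal component held 75.9% of the variance and separated the stages. On it E8.5 KO3 scored 28.6 against 49.8 to 61.5 for the other E8.5 KO libraries, nearest to the E7.5 libraries at -95.7 each. The trend of level with transcript length also differed among libraries, with a Spearman coefficient over genes of 0.357 in E8.5 KO3 and -0.354 in E8.5 KO4. With that trend removed from each library, 91 of the 96 genes named kept their direction and their side of the threshold. Leaving out a library moved the number called over all genes. List counts given below without a library are to be read against that number. Without E8.5 KO3, 2907 genes rose and 3367 fell. Without E7.5 KO1, 482 rose and 748 fell, and without E7.5 KO2, 552 rose and 791 fell.

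The pluripotency programme fell. Of 26 core pluripotency genes, 23 were tested, and 17 fell, 1 rose and 5 were not called, with a median log2 change of -2.75. Of 24 primed epiblast genes, which mark the epiblast about to gastrulate, all were tested, 17 fell and none rose, with a median of -1.71. Together 34 of 47 were lower, against 18.0% of all genes. Genes were tested at 1 CPM or more in at least 2 libraries. Members high at E7.5 alone are therefore in this count only through the E7.5 libraries. Pou5f1, which encodes the pluripotency factor OCT4 (chr17:35506018-35510772, plus strand, GRCm38), measured 340.2 and 104 CPM at E7.5 and 0, 2.28, 7.29 and 0.244 CPM in E8.5 KO1 to KO4. It fell by 6.29 ± 0.83 on the log2 scale (adjusted p = 0.000688). The groups are far apart, and the E8.5 level is 1.1% of the E7.5 mean. The trace that remained was mostly in E8.5 KO3. Tdgf1, a co-receptor for NODAL also called Cripto, measured 396 and 703 CPM at E7.5 and 0, 0, 2.21 and 0 CPM at E8.5 (log2 change -8.63 ± 0.52, adjusted p = 1.06e-05). Again the only library with reads was E8.5 KO3. Utf1, Tdh, L1td1, Dppa5a and Zfp42, all genes of pluripotent cells, were each under 2.1% of their E7.5 level at E8.5.

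Nanog fell less. It measured 36.2 and 14.4 CPM at E7.5 and 3.88, 5.96, 10.2 and 3.41 CPM at E8.5 (log2 change -1.90 ± 0.47, adjusted p = 0.0163). Nanog at E7.5 KO2 lay near E8.5 KO3, and the call is lost without E7.5 KO1. Sall4, a zinc finger factor that stays active in progenitors, kept 27.2% of its level, with 100.5 CPM in E8.5 KO3 and 29.7 to 45.3 CPM in the other E8.5 KO libraries. The exception that rose was Sox2, which serves pluripotent cells and neural progenitors alike. Sox2 measured 37.3 and 18.1 CPM at E7.5 and 111, 91.6, 70.7 and 102 CPM at E8.5, with no overlap (log2 change 1.79 ± 0.31, adjusted p = 0.0026). Lin28a, which blocks maturation of let-7 miRNAs, measured 79.4 and 78.1 CPM at E7.5 and 72.7, 71.1, 161 and 36.6 CPM at E8.5, so the E8.5 libraries lie on both sides of the E7.5 pair. Its partner Trim71, a ubiquitin ligase that promotes proliferation, likewise overlapped, at 58.3 and 53.9 against 67.1, 62.3, 83.6 and 37.2 CPM. Neither was called (adjusted p = 0.906 and 0.822).

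Signals of the primed epiblast list fell. Fgf5, the growth factor that marks the primed state (chr5:98254184-98277030, plus strand), measured 154 and 113 CPM at E7.5 and 0.577, 0.325, 1.30 and 0.122 CPM at E8.5 (log2 change -6.45 ± 0.35, adjusted p = 6.39e-06). Nodal, the ligand that patterns the epiblast, measured 32.5 and 11.5 CPM at E7.5 and had no read in any E8.5 KO library (adjusted p = 5.8e-05). Against a floor of 3 reads over the group it was at least 288-fold lower. Its antagonists followed: Lefty2 was at 64.9 and 153 CPM at E7.5 and at 0, 0, 0.326 and 0 CPM at E8.5. Lefty1 was at 24.4 and 39.9 CPM against 0.0825, 0.108, 0 and 0.244 CPM. Both were called (adjusted p = 7.06e-06 and 8.03e-06). Of the 17 Nodal pathway genes tested, of 20, 11 fell (64.7%, against 18.0% of all genes) and 1 rose, with a median of -1.78, or -1.07 and -1.13 without E7.5 KO1 and KO2. The riser was Acvr2b, an activin and NODAL receptor, whose call holds only where E8.5 KO3 or KO4 is the library left out. The counts that fell were 4 and 5 without E7.5 KO1 and KO2, where 13 genes passed the filter.

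Dnmt3b, the de novo DNA methyltransferase of the epiblast, had the highest level in the list. It measured 2231 and 667 CPM at E7.5 and 77.8, 114, 182 and 63.4 CPM at E8.5 (log2 change -3.59 ± 0.52, adjusted p = 0.00113). Dnmt3a, the related enzyme, fell by 1.04 ± 0.32 (adjusted p = 0.0367), a call lost without E7.5 KO1 or any of E8.5 KO1, KO2 and KO4. Among 26 DNA methylation and Polycomb genes, all tested, 7 fell (26.9%, against 18.0% of all genes) and 3 rose (11.5%, against 12.9%). Their median of -0.06 turned to 0.03 without E8.5 KO4 and 0.02 with the length trend removed, and was -0.19, -0.16, -0.10 and -0.10 without E7.5 KO2, E8.5 KO2, E8.5 KO3 and E8.5 KO1. Without E7.5 KO1, E7.5 KO2 or E8.5 KO1 none of them rose, and without E8.5 KO2 1 did. The Polycomb protein gene Cbx7 fell from 69.6 and 50.1 CPM to between 2.06 and 5.28 CPM (adjusted p = 8.88e-05), while Ezh2, the H3K27 methyltransferase, rose from 115 and 117 CPM to between 157 and 261 CPM (adjusted p = 0.0182), a call lost with 1 library fewer, except without E8.5 KO3 or KO4. E-cadherin, encoded by Cdh1, holds epithelial cells together. It measured 192 and 91.8 CPM at E7.5 and 19.6, 9.86, 53.2 and 6.34 CPM at E8.5, with E8.5 KO3 nearest to E7.5 (log2 change -2.96 ± 0.70, adjusted p = 0.0129, not called without E7.5 KO1). Otx2 and Pou3f1, which serve both primed epiblast and anterior neural tissue, overlapped between stages and were not called (adjusted p = 0.398 and 0.587). Dusp6, a target of FGF signalling, was nearly level, at 94.0 and 87.8 against 92.6, 74.0, 89.0 and 72.6 CPM (adjusted p = 0.562).

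**Figure D1:**
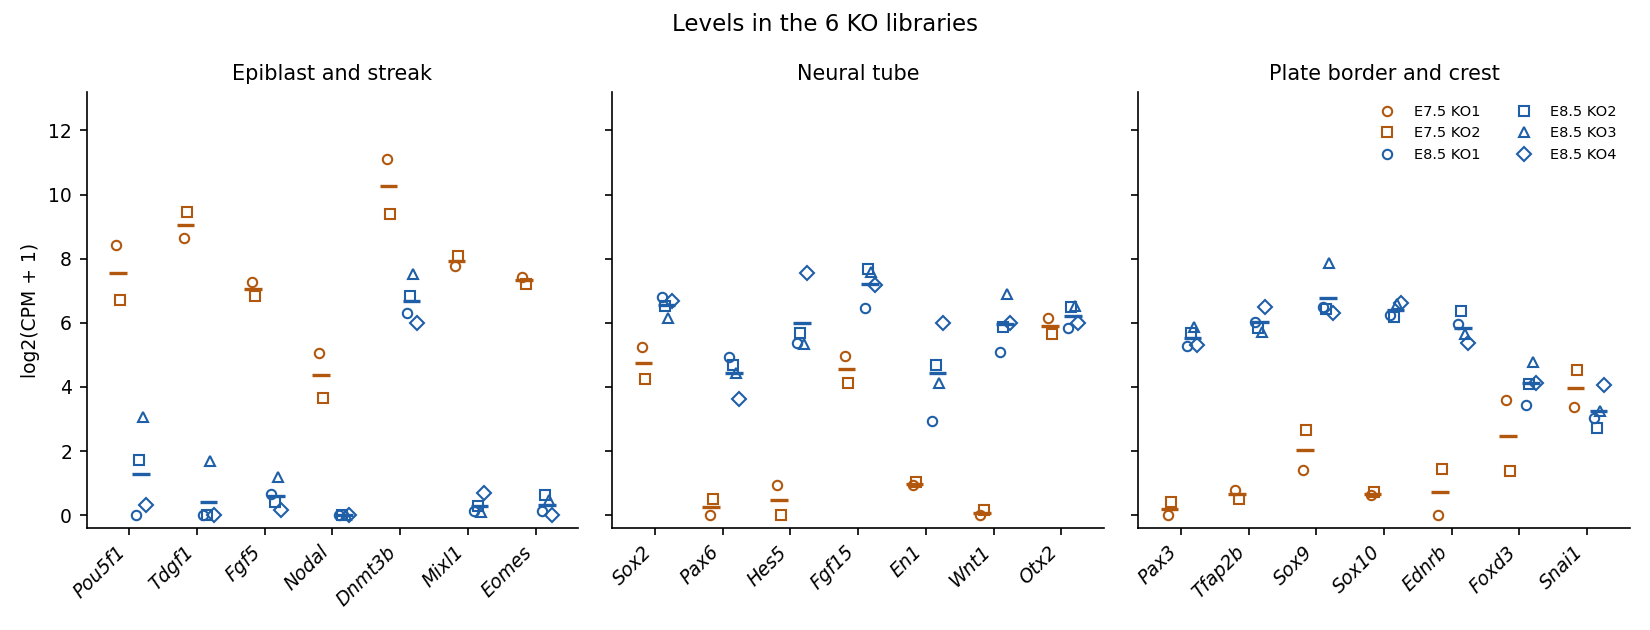
Levels of 21 genes in log2(CPM + 1), 1 point per library, with E7.5 KO in orange and E8.5 KO in blue, and a bar at each group's mean. Epiblast and streak genes sit high at E7.5, and at E8.5 all but Dnmt3b are low, with E8.5 KO3 highest for Pou5f1, Tdgf1 and Fgf5. Sox10 and Pax3 show the opposite, and Otx2, Foxd3 and Snai1 overlap.

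How many epiblast genes were called depended on having both E7.5 libraries. Fewer were called without E7.5 KO1 or without E7.5 KO2. Of the members 36 were tested in each case, since genes with reads at E7.5 alone then miss the filter of 2 libraries. Calls were also lost among genes still tested, such as Nanog and Cdh1 without E7.5 KO1. Without E7.5 KO1 and KO2 in turn, the median log2 change was -1.97 and -2.20 for core pluripotency genes. For primed epiblast genes it was -1.40 and -1.77. The number called lower ranged from 31 to 36 when any single E8.5 KO library was left out. The 2 E7.5 libraries also differed from each other. Of the 24 primed epiblast genes, 18 were higher in KO1 and 11 of these by over 2-fold on the log2(CPM + 1) scale, with a median difference of 0.74. Of 25 streak and early mesoderm genes, 19 were higher in KO2, 9 of them by over 2-fold. Slc7a3, an amino acid transporter of the epiblast, measured 332 and 33.6 CPM, and Cer1, a NODAL and WNT antagonist of anterior endoderm, measured 22.0 and 315 CPM. With 1 library on each side there is no test of this difference.

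Genes of the primitive streak fell with the epiblast. Of 27 such genes, 25 were tested, 15 fell (60.0%) and 4 rose, a share near the 12.9% of all genes. The median log2 change was -2.19, or -0.93 without E7.5 KO2. Mixl1, a homeobox factor of the streak, measured 216 and 273 CPM at E7.5 and 0.0825, 0.217, 0.0651 and 0.609 CPM at E8.5 (log2 change -7.64 ± 0.30, adjusted p = 1.35e-06). Eomes, a T-box factor for definitive endoderm and mesoderm, measured 173 and 148 CPM against 0.0825, 0.542, 0.391 and 0 CPM (adjusted p = 1.71e-06). T, or Brachyury, and Mesp1, which specifies cardiac mesoderm, fell by 4.32 ± 0.27 and 5.27 ± 0.45. All of these genes had no E8.5 library within reach of E7.5. The other 4, which rose, were Wnt3a, Dll1, Fgf17 and Lef1, signalling genes that are also active in the neural tube. Wnt3a measured 1.45 and 0.845 CPM at E7.5 and 7.51, 12.0, 19.5 and 15.6 CPM at E8.5 (log2 change 2.71 ± 0.38, adjusted p = 0.001). Without E7.5 KO1 and KO2 the falls numbered 7 and 5, of 17 genes tested, and the rises 2 in each case.

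**Figure D2:**
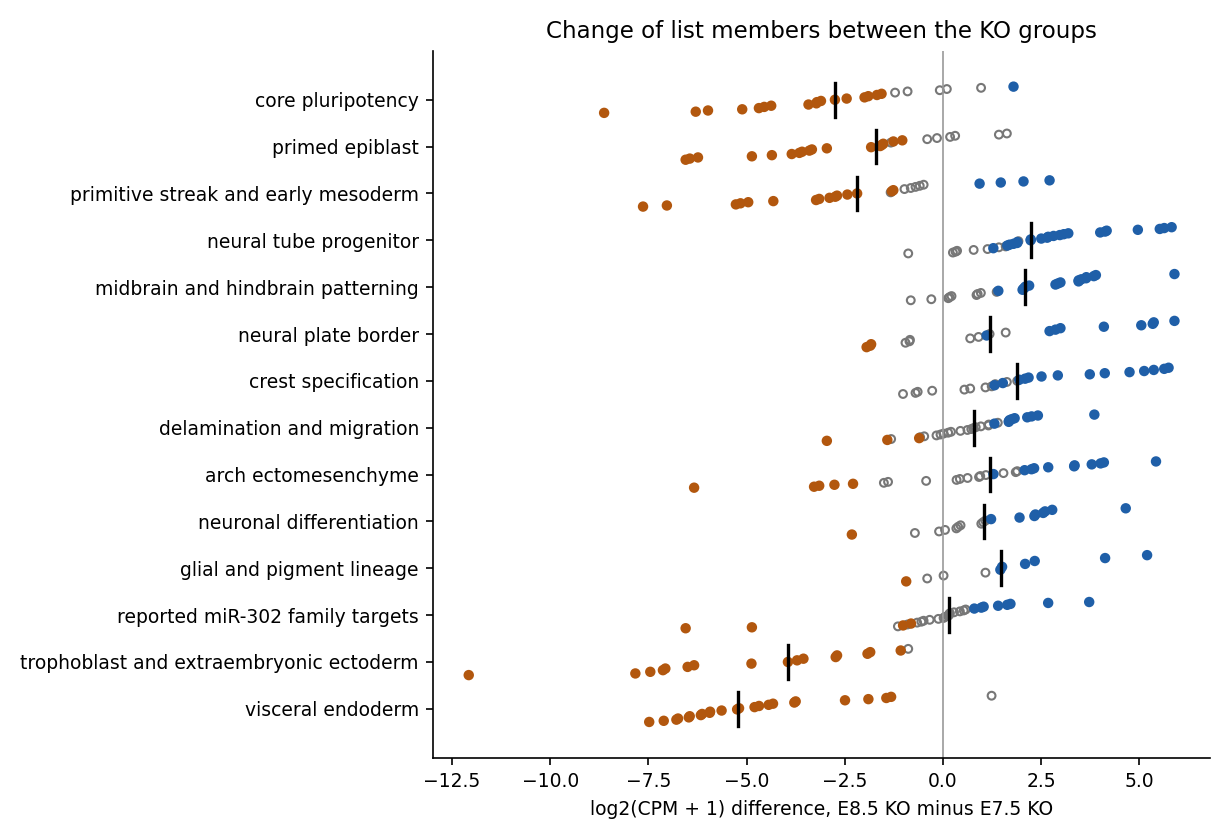
Difference in log2(CPM + 1) between the KO groups for each tested member of 14 lists, filled where called at an adjusted p of 0.05 (blue higher, orange lower), open otherwise, with a black bar at the list median. Medians lie below 0 for the epiblast, streak and extraembryonic lists and above 0 for the neural and crest lists.

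Neural tube progenitor genes rose. Of 32 such genes, 31 were tested, 22 rose and none fell, against 12.9% of all genes that rose, and the median log2 change was 2.23. With the 7 members that had no read at one stage set to their 3-read bound, the median was 2.81. Members high at E8.5 alone are in the count of rises only through the E8.5 libraries. The same holds for the patterning, border, crest, neuronal, and glial and pigment lists below. Pax6, a homeobox factor of the neural tube and eye, measured 0 and 0.422 CPM at E7.5 and 29.4, 24.8, 20.7 and 11.3 CPM at E8.5 (log2 change 4.17 ± 0.40, adjusted p = 0.000115). Hes5, a Notch effector that keeps progenitors dividing (chr4:154960923-154962371, plus strand), measured 0.909 and 0 CPM and then 39.9, 50.6, 39.7 and 186 CPM (adjusted p = 0.000262). E8.5 KO4 stood apart at the top. Hes3, a related repressor of neural progenitors, had no read at E7.5 and measured 9.57, 114, 92.4 and 88.2 CPM, lowest in E8.5 KO1. Over the group it was at least 368-fold higher than the floor of 3 reads.

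The nuclear receptor gene Nr2f1, used in neural tube and cranial crest, measured 0.182 and 0 CPM at E7.5 and 67.5, 53.7, 23.2 and 92.0 CPM at E8.5 (adjusted p = 6.33e-05). Sox1, an early neural plate factor, stayed modest in level, at 0.363 and 0.422 CPM against 8.08, 7.91, 5.80 and 15.7 CPM (log2 change 2.81 ± 0.37, adjusted p = 0.000705). Fgf15, an FGF ligand made in the brain, was already present at 30.2 and 16.5 CPM and reached 86.3, 203, 192 and 143 CPM (log2 change 2.68 ± 0.37, adjusted p = 0.000916). Members that were not called include Sox3, Olig2 and Zic1. Zic1 had no read at E7.5, and edgeR called it higher (log2 change 7.70, adjusted p = 0.0379). DESeq2 called it as well (log2 change 6.66, adjusted p = 0.00136), as did limma without E8.5 KO3 (adjusted p = 0.00631). Olig2, a factor of ventral progenitors, measured 5.63 and 2.11 CPM at E7.5 and 13.9, 3.36, 0.716 and 6.70 CPM at E8.5, so the groups overlap (adjusted p = 0.814).

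Genes that pattern the midbrain and hindbrain rose in 17 of 26 tested, of 28 (65.4%, against 12.9% of all genes). None was lower, against 18.0% of all genes, and the median was 2.09. The count was 10 without E7.5 KO1. Wnt1, expressed at the dorsal midline and midbrain (chr15:98789857-98793837, plus strand), measured 0 and 0.106 CPM at E7.5 and 33.0, 57.0, 119 and 63.4 CPM at E8.5 (log2 change 5.89 ± 0.44, adjusted p = 2.94e-05). Because Wnt1-Cre chose the cells, its level is not independent of the sort. The E8.5 KO libraries differed in axial genes. En1 and En2, of the midbrain to hindbrain junction, were lowest in KO1, at 6.60 and 5.11 CPM, and highest in KO4, at 63.1 and 61.5 CPM. The forebrain genes Six3 and Lhx2 ran the other way, at 41.9 and 48.8 CPM in KO1 and 6.70 and 6.58 CPM in KO4. The hindbrain gene Hoxa2 measured 27.8, 17.02, 5.01 and 18.6 CPM, and Hoxb2 measured 36.5, 22.3, 7.75 and 33.3 CPM, both lowest in KO3. Despite this spread all 6 genes were called higher at E8.5, with adjusted p from 0.00112 for Hoxa2 to 0.0108 for En2, though En1, En2, Six3 and Hoxb2 lose the call without E7.5 KO1 and En2 also without E7.5 KO2.

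At the neural plate border, where crest is induced, rises were frequent and falls were near the share of all genes. Of 20 genes 19 were tested. Of these 9 rose (47.4%, against 12.9% of all genes) and 3 fell (15.8%, against 18.0%). The median was 1.19, or 2.61 with the 4 members at 0 in a whole group set to their bound. Pax3, a border specifier (chr1:78101267-78197134, minus strand), measured 0 and 0.317 CPM at E7.5 and 38.1, 50.6, 57.0 and 38.7 CPM at E8.5 (log2 change 5.34 ± 0.29, adjusted p = 5.95e-06). Tfap2b, an AP-2 factor of crest, measured 0.727 and 0.422 CPM and then 64.1, 56.2, 51.2 and 88.5 CPM (adjusted p = 5.58e-06). Msx3, a gene of the dorsal neural tube, had no read at E7.5 and measured 35.1, 40.7, 34.1 and 21.6 CPM at E8.5, at least 167-fold above the floor. Among the genes that fell were Zic5 and Tfap2c, which the epiblast or trophoblast also express. Tfap2c measured 123 and 169 CPM at E7.5 and 27.3, 37.7, 69.7 and 32.5 CPM at E8.5. The border genes Msx1 and Tfap2a were not called (adjusted p = 0.0997 and 0.11), and Tfap2a was low throughout, at 1.64 and 2.96 CPM and at 3.14 to 5.28 CPM. Tfap2a was called with quantile normalisation (adjusted p = 0.0309) and with the length trend removed (adjusted p = 0.0444). Pax7 was too low to test. Without E7.5 KO2 1 border gene fell.

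Crest specification genes rose in 14 of the 25 tested, of 26 (56.0%, against 12.9% of all genes), with none lower and a median of 1.89. The count stayed between 12 and 17 when any library was left out. Sox10, the factor that maintains crest (chr15:79154908-79165240, minus strand), measured 0.545 and 0.633 CPM at E7.5 and 74.1, 71.9, 95.3 and 98.0 CPM at E8.5 (log2 change 5.74 ± 0.24, adjusted p = 1.71e-06). Sox9, which acts before it, measured 1.64 and 5.28 CPM and then 88.9, 84.6, 234 and 77.9 CPM, with E8.5 KO3 far above the rest (adjusted p = 0.000192). Ednrb, the endothelin receptor that migrating crest carries (chr14:103814625-103844402, minus strand), measured 0 and 1.69 CPM and then 60.8, 82.2, 49.2 and 40.1 CPM (log2 change 5.12 ± 0.43, adjusted p = 5.63e-05). Id3, an inhibitor of bHLH factors and a BMP target, rose from a high start, 157 and 198 CPM, to 931, 1216, 833 and 1095 CPM (adjusted p = 0.000104).

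Several textbook crest factors were not called. Foxd3, which also serves pluripotent cells, measured 11.1 and 1.58 CPM at E7.5 and 9.90, 16.04, 26.2 and 16.4 CPM at E8.5, so E7.5 KO1 falls inside the E8.5 range (adjusted p = 0.0641). Foxd3 was called with quantile normalisation (adjusted p = 0.0311), and its log2 change was 2.67 without E7.5 KO1. Twist1, of mesenchyme, measured 6.18 and 6.86 CPM and then 29.9, 15.6, 12.5 and 85.5 CPM. Its groups do not overlap, but the spread at E8.5 was wide (log2 change 1.89 ± 0.65, adjusted p = 0.0547). Twist1 was called with edgeR (adjusted p = 0.0425) and DESeq2 (adjusted p = 0.0013). It was also called with quantile normalisation, the replicate block or the length trend removed, and without E8.5 KO3 or KO4. Snai1, which represses Cdh1 and acts in the streak as well as in crest, measured 9.45 and 22.3 CPM and then 7.18, 5.53, 8.60 and 15.6 CPM (adjusted p = 0.257). Its relative Snai2 was called, from 1.09 and 1.06 CPM to between 3.26 and 7.84 CPM (adjusted p = 0.0107), but not without either E7.5 library.

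Later steps of crest development rose in part. Among delamination and migration genes 10 of 30 tested, of 32, rose (33.3%) and 3 fell, a share below the 18.0% of all genes, with a median of 0.80, or 0.35 without E7.5 KO1. Without E8.5 KO2 6 rose, in a fit where 1122 of 13401 genes rose. Fewer rose and fell without E7.5 KO1, where fewer of all genes did as well. Cdh6, a cadherin of premigratory crest, measured 3.27 and 2.74 CPM at E7.5 and 68.0, 62.2, 62.1 and 39.5 CPM at E8.5 (log2 change 3.85 ± 0.27, adjusted p = 2.25e-05). N-cadherin, from Cdh2, was above both E7.5 libraries in every E8.5 library, with 22.2 and 95.02 CPM at E7.5 and 96.9 to 172 CPM at E8.5. Cdh2 was not called (log2 change 1.39 ± 0.49, adjusted p = 0.0582). Its change was 0.29 without E7.5 KO1 and 2.36 without E7.5 KO2, where it was called (adjusted p = 0.0046), as it was with the length trend removed (adjusted p = 0.0213) or the replicate block (adjusted p = 0.041). Of 28 arch ectomesenchyme genes tested, of 30, 11 rose (39.3%, against 12.9% of all genes), and the median was 1.19. The 5 that fell (17.9%) were near the 18.0% of all genes. The rises numbered 6 without E7.5 KO1. Dlx2, of the pharyngeal arches, measured 0 and 0.106 CPM and then 68.6, 36.5, 20.3 and 73.2 CPM (adjusted p = 8.93e-05). Pdgfra fell from 43.6 and 69.4 CPM to between 5.48 and 11.1 CPM (adjusted p = 0.000409), and Hand1 from 124 and 245 CPM to between 0 and 6.06 CPM (adjusted p = 0.000241). Both are also genes of E7.5 mesoderm or extraembryonic tissue.

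Neuronal genes rose in 8 of 18 tested, of 25 (44.4%, against 12.9% of all genes), with a median of 1.05. Only 1 was lower (5.56%, against 18.0%). Tubb3, neuronal tubulin, measured 12.4 and 9.40 CPM at E7.5 and 46.9, 55.7, 55.4 and 78.7 CPM at E8.5 (log2 change 2.33 ± 0.26, adjusted p = 0.000266). Neurog2, which starts neurogenesis, had no read at E7.5 and 2.82 to 9.63 CPM at E8.5. In the glial and pigment list 10 of 16 were tested. Of these 6 rose (60.0%, against 12.9% of all genes) and 1 fell, a share below the 18.0% of all genes. The median was 1.482, or 1.897 with the 2 members at 0 in a whole group set to their bound. Mitf, the pigment cell factor, was the gene that fell, from 2.18 and 2.22 CPM to under 1 CPM. It misses the filter without either E7.5 library, and the call is lost with DESeq2 (adjusted p = 0.0823) and with the length trend removed (adjusted p = 0.0592). Over all genes called without overlap at a mean of at least 50 CPM, the largest rises were Crabp1 and Crabp2, which bind retinoic acid. Crabp1 measured 3.09 and 14.4 CPM and then 2382, 1274, 324 and 2682 CPM, and Crabp2 measured 15.6 and 6.44 CPM and then 1126, 791, 367 and 1463 CPM. In both the lowest E8.5 library was KO3 (adjusted p = 0.000295 and 5.8e-05).

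**Figure D3:**
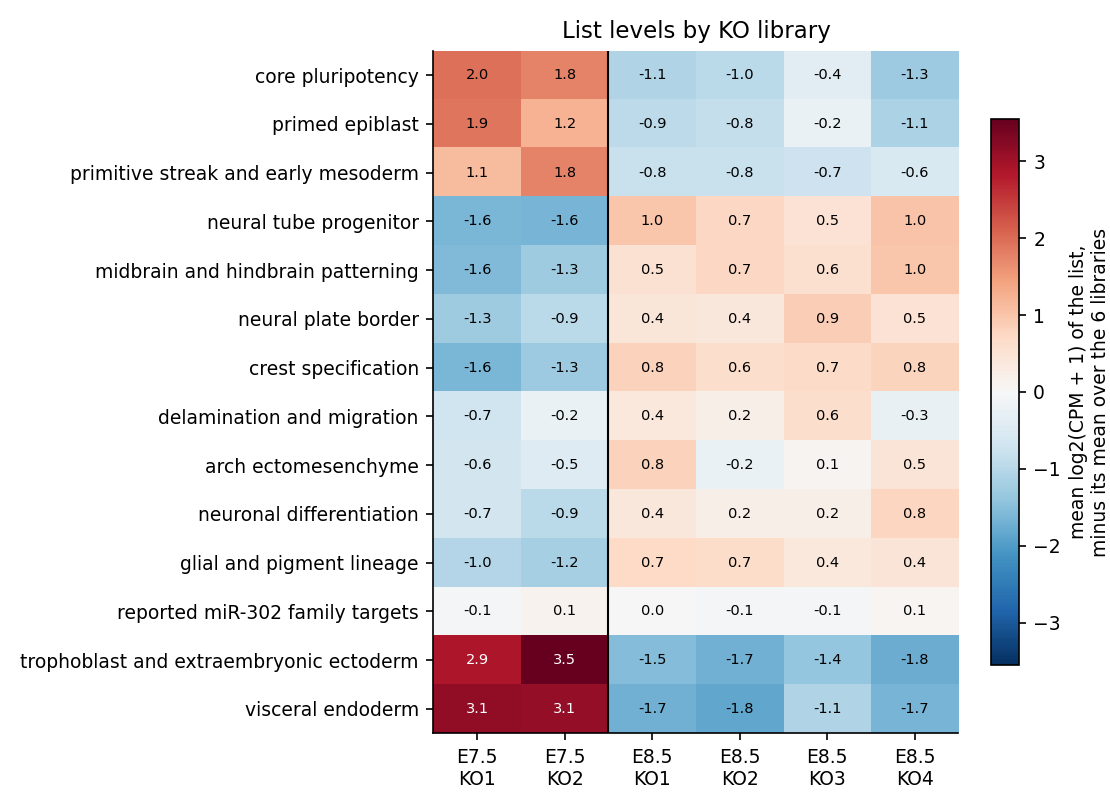
Mean log2(CPM + 1) of each list in each KO library, minus the list's mean over the 6 libraries, with warm colours above and cool colours below that mean. The stages separate in the epiblast, neural and crest lists, and E8.5 KO3 lies closest to E7.5 in the epiblast and extraembryonic lists.

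E8.5 KO3 was the highest of the 4 E8.5 KO libraries for 15 of 23 core pluripotency genes and 17 of 24 primed epiblast genes. KO4 was the lowest for 12 in each list. Summed over the core pluripotency list the level was 1689 and 1636 CPM at E7.5 and 391, 358, 578 and 278 CPM in E8.5 KO1 to KO4. Much of each E8.5 sum came from Lin28a, Sall4, Trim71 and Sox2, so the sum does not measure epiblast alone. The E8.5 WT libraries summed to 338, 367 and 617 CPM, so a sum as large as that of KO3 occurs there too. Cardiac markers were also highest in E8.5 KO3, at 198 CPM summed against 29.6 to 83.8 CPM in the others. Their part in the result was not tested. Without E8.5 KO3, 36 epiblast genes were lower, 23 neural tube genes were higher and 17 crest genes were higher.

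Signalling pathways were mixed apart from Nodal. Of 35 Wnt genes tested, of 36, 12 rose (34.3%, against 12.9% of all genes) and 5 fell (14.3%, against 18.0%). Their median of 0.15 turned to -0.06 without E7.5 KO1, -0.04 with total counts only and -0.01 with DESeq2. The receptor gene Fzd3 rose from 16.5 and 12.5 CPM to between 65.9 and 94.2 CPM (adjusted p = 0.000111). The Wnt rises numbered 6 without E7.5 KO1, and the falls numbered 8 without E8.5 KO3. Of 24 BMP genes, of 25, 5 rose (20.8%) and 7 fell (29.2%). The targets Id1, Id2 and Id3 rose, and the inhibitor Smad7 fell from 28.2 and 25.9 CPM to between 1.63 and 4.36 CPM (adjusted p = 0.000367). The BMP falls numbered 4 without E7.5 KO1 and 2 without KO2, and the rises 2 without KO1. Of 22 Notch genes, of 23, 6 rose (27.3%), Notch1 and Hes5 among them, and 2 fell (9.09%). The Notch1 call is lost with edgeR (adjusted p = 0.0603) and DESeq2 (adjusted p = 0.0721). It is also lost with no filter, total counts only or the replicate block, and without E8.5 KO1 or KO2. Without E7.5 KO1 1 Notch gene fell, and without E7.5 KO2 none did. Of 22 FGF genes 3 rose, namely Fgf15, Fgf17 and Fgf18 (13.6%, near the share of all genes), and 6 fell (27.3%), Fgf5 and the ETS target Etv5 among them. The FGF falls numbered 3 without either E7.5 library and 4 without E8.5 KO2.

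Cells other than epiblast were in the E7.5 libraries. Trophoblast and extraembryonic ectoderm markers fell in 16 of 17 tested, of 22 (94.1%, against 18.0% of all genes). Visceral endoderm markers fell in 23 of 24 (95.8%). Summed, the trophoblast list measured 4559 and 8074 CPM in E7.5 KO1 and KO2 and 79.1 to 121 CPM at E8.5, and visceral endoderm 3970 and 3686 CPM against 89.3 to 198 CPM. The greatest fall among the genes named was that of Prl3d1, a hormone of trophoblast giant cells, with 3170 and 5843 CPM at E7.5 and no read in any E8.5 KO library. In such bulk libraries fewer cells of a type and less RNA per cell cannot be told apart. Epiblast genes that these tissues also express, such as Cdh1 and Epcam, fell alongside these markers, and the markers' part in those falls was not tested. Tfap2c is itself a member of the trophoblast list. Myeloid markers fell in 6 of 7 tested, of 14 (85.7%), and endothelial markers in 5 of 14, of 15 (35.7%), against 18.0% of all genes. The myeloid list summed to only 2.28 to 9.57 CPM at E8.5. In all lists of this paragraph, members high at E7.5 alone are counted only through the E7.5 libraries, so their fall is not independent of the filter.

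Within the sorted group blood and heart differed by library. Erythroid markers, 11 tested of 15, summed to 1790 and 2759 CPM in E8.5 KO1 and KO2, which share the code number 128, and to 4.43 and 117 CPM in KO3 and KO4. At E7.5 they summed to 22.2 and 23.9 CPM. None was called, and the embryonic globin gene Hbb-bh1 measured 841, 1305, 0 and 44.96 CPM at E8.5. Without E8.5 KO1 and KO2 together, 15 neural tube, 11 crest and 22 epiblast genes were still called in the same directions, against 22, 14 and 34 with them. Paraxial mesoderm and surface ectoderm markers were present at 7.91 to 22.7 CPM and 448 to 999.7 CPM at E8.5. The surface ectoderm list fell in 10 of 14 tested, of 15 (71.4%, against 18.0% of all genes). Its keratin genes Krt8 and Krt18 measured 97.1 to 297 CPM and 103 to 250.2 CPM at E8.5.

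**Figure D4:**
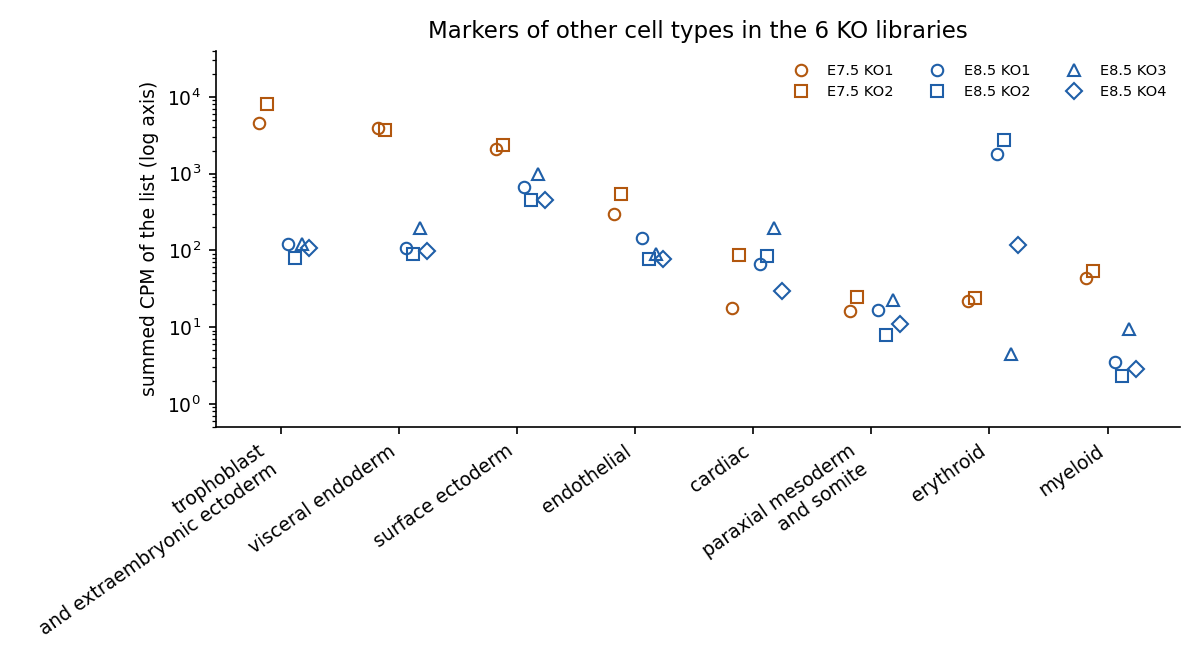
Summed CPM of marker lists for other cell types on a log axis, 1 point per library, with E7.5 KO in orange and E8.5 KO in blue. Extraembryonic markers are far lower in every sorted library, erythroid markers are high in E8.5 KO1 and KO2 only, and cardiac markers are highest in E8.5 KO3.

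Whether the KO libraries moved as the wild type did was tested over 11 libraries. Of 14144 genes, 1818 rose (12.9%) and 2448 fell (17.3%) between the WT groups, and in the same fit 3871 changed in KO, 2704 of these in the same direction as in WT and 1 in the opposite. The difference between the KO change and the WT change was called for 0 genes (0%) by limma, with 0.0969 the smallest adjusted p, while 776 genes (5.49%) had an unadjusted p below 0.05. edgeR called 0 and DESeq2 called 8. The genotypes share code numbers within a stage, 239 for E7.5 KO1, WT1 and WT2 and 169 for E8.5 KO4 and WT2, and the labels do not say what a code stands for. With the code number as a block, a fit with 2 residual degrees of freedom, 0 genes were called and 254 had an unadjusted p below 0.05. The median log2 change of core pluripotency genes was -2.59 in KO and -1.95 in WT, and that of neural tube genes 2.07 and 2.10. For crest specification it was 1.76 and 1.56, and for streak genes -2.18 and -1.42. A difference that misses the threshold does not show that the genotypes act alike. Leaving out E7.5 WT1 or WT2 gave 35 and 105 genes called.

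**Figure D5:**
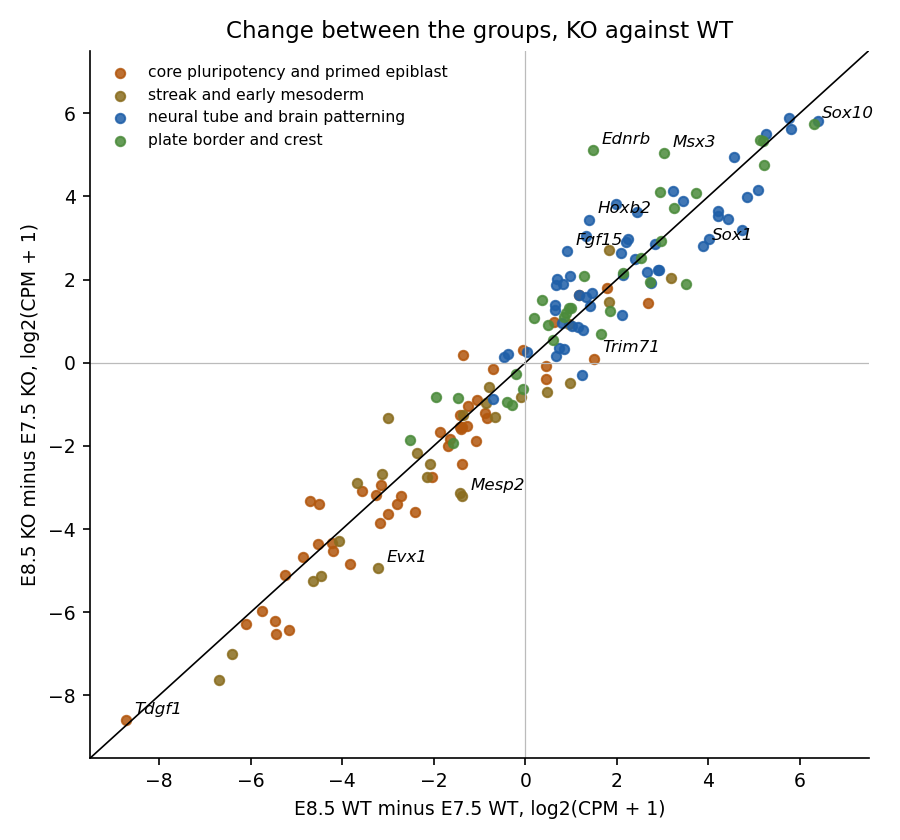
Change in log2(CPM + 1) between E7.5 and E8.5 for KO (vertical) against WT (horizontal), 1 point per tested gene of the epiblast, streak, neural and crest lists, with the line of equality. Most points lie along the line, and Ednrb, Fgf15 and Msx3 lie above it, while Trim71, Mesp2 and Evx1 lie below.

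Single members departed from the line before adjustment. Ednrb rose by 1.48 in WT, 3.63 ± 0.86 less than in KO (unadjusted p = 0.0011). In WT it measured 14.5 and 1.597 CPM at E7.5 and 18.5, 14.7 and 16.97 CPM at E8.5, so all 4 E8.5 KO libraries are above all 3 of the wild type. DESeq2 called it, and limma called it only without E7.5 WT2. Fgf15 rose by 0.91 in WT, from 23.7 and 43.0 CPM to 74.4, 76.6 and 39.9 CPM, and the difference was 1.76 ± 0.59 (unadjusted p = 0.011). Trim71, level in KO, rose by 1.503 in WT, from 30.9 and 22.5 CPM to 54.3, 58.3 and 142 CPM (difference -1.40 ± 0.57, unadjusted p = 0.03). Mesp2, a somite segmentation gene, fell by 1.38 in WT and further in KO, from 10.5 and 11.5 CPM to at most 0.412 CPM (difference -1.83 ± 0.47, unadjusted p = 0.0019). Trophoblast genes led the negative side, Prl3d1 with a difference of -2.49 ± 0.46 (unadjusted p = 0.00012), and the trophoblast list summed to 2059 and 1551 CPM in E7.5 WT against 4559 and 8074 CPM in E7.5 KO. Its part in the other differences was not tested.

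miRNAs pair through the seed with sites in the 3′UTR of their targets and lower their mRNA, so sites that match the miR-302 seed were examined. The motifs searched in annotated 3′UTRs were AGCACTTA as an 8mer and AGCACTT or GCACTTA as 7mers, on the transcript strand, the 7mers lying within the 8mer. Of 20108 genes with a 3′UTR, 627 (3.12%) hold the 8mer and 3799 (18.9%) a 7mer or 8mer. Sites of reported targets that the results name are shown with the match in capitals and flanking bases in lower case (GRCm38).
Lefty1: ctgtatgcgaAGCACTTAcatgtataga
Lefty2: acccagtttaAGCACTTAcatgggtaaa
Cdkn1a: tgggtgtcaaAGCACTTAgtgggtctga
Lats2: ccgtacccaaAGCACTTgctgctgccc
Ccnd1: tccatttcaaAGCACTTttggtcagct
Ccnd2: ccattagaaaAGCACTTtgaaaatttt
Fgf15: cctttccccgGCACTTAcgtggcagca
Dazap2: acataccttcAGCACTTctcacaatgt

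Among 29 reported targets, all tested, 8 rose (27.6%, against 12.9% of all genes) and 4 fell (13.8%, against 18.0%), with a median of 0.15. The median turned to -0.03 without E8.5 KO3 and with total counts only. Without either E7.5 library 3 rose and none fell. Without E8.5 KO1 5 rose and 2 fell, without E8.5 KO2 2 fell, and without E8.5 KO4 7 fell. Both Lefty genes fell with Nodal. Ccnd2 and Ccnd1, D-type cyclins, rose. Ccnd2 measured 26.4 and 93.6 CPM at E7.5 and 753, 734, 423 and 861 CPM at E8.5 (log2 change 3.72 ± 0.47, adjusted p = 0.000534), and it rose by 4.04 in WT. The cell cycle inhibitor gene Cdkn1a and the Hippo kinase gene Lats2, reported targets in stem cells, overlapped between stages (adjusted p = 0.348 and 0.697). Dazap2 measured 147 and 134 CPM and then 347, 373, 245 and 219 CPM (adjusted p = 0.0156), against no rise in WT (log2 change -0.07, difference 1.11 ± 0.40, unadjusted p = 0.016). Its call in KO is lost without either E7.5 library. Over the 29 targets the median difference between the KO and WT changes was 0.09, and 15 were positive. None was called for that difference by limma, with 0.768 the smallest adjusted p.

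In the 11-library fit 481 genes with the 8mer were tested. Their median log2 change was 0.04 in KO and -0.19 in WT, and the median difference was 0.15. In the 6-library fit, 55 of 465 such genes rose (11.8%) and 62 fell (13.3%), against 12.9% and 18.8% of genes with no match. In the 11-library fit genes with no match, 10571 in all, had medians of 0.01 and -0.03 and a median difference of -0.005. The 8mer genes exceeded genes with no match by 0.154 in the difference, where the spread between libraries of the same quantity gives an SD of 0.114. That excess was 0.0985 without E7.5 KO2 or without E7.5 WT2, 0.102 without E8.5 WT1_5s and 0.216 without E8.5 WT3. It was 0.0985 for 7mer or 8mer genes. Per library, the median of 8mer genes relative to genes with no match was -0.172 and -0.144 in E8.5 WT1_5s and WT2 but 0.0694 in WT3, inside the range of -0.0355 to 0.145 of the E8.5 KO libraries. The groups of libraries overlap.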

How the data were processed

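RNA from whole E7.5 embryos or sorted E8.5 cells was made into cDNA with SMART-Seq v4 and into libraries with Nextera XT, per the labels' protocols. FastQC 0.11.5, STAR 2.7.0f and build mm10 are named in the submitters' processing notes, while the read counter is not given in the sources used here. Each library is 1 column of a deposited table of normalized counts, per the labels, treated here as a signal: within a column the values are whole multiples of 1 factor. Each column was divided by its smallest positive value, which gave whole reads for 100% of values (tolerance 0.01). Reads were scaled together by TMM. Genes with at least 1 CPM in at least 2 libraries were tested with limma 3.58.1 (trended, two-sided) on log2(CPM + 1) in R 4.3.3, with Benjamini-Hochberg adjustment at 0.05. The whole reads were also tested with edgeR 4.0.16 and with DESeq2 1.42.0. Other normalisations, filters and pseudocounts, a replicate block, removal of a transcript length trend and omission of each library were alternatives. The tests were checked on simulated data. Replicates differed by more than sampling noise (chi-square per degree of freedom of at least 11.5). Gene positions and 3′UTRs are from GENCODE M21. Members and gene lists were chosen with earlier results of these data known. Named were the locus, preset genes, up to 6 members with the smallest p in each list, the 8 largest rises and 8 largest falls without overlap at a mean of at least 50 CPM, leading genes of the KO minus WT difference and abundant markers. Sall4, L1td1, Dusp6, Slc7a3, Zic5, Dll1, Fgf17, Lef1, Olig2, Lhx2, Six3, Id1, Acvr2b, Ezh2 and Notch1 were named after their values were seen. A further E8.5 KO library, KO4_5s, and the E9.5 libraries were not analysed here.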

Additional observations from a re-analysis of the deposited data

Results flagged for a closer look

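In the 4 E8.5 KO libraries, 10 of 108 values screened had a library farther from the others than Dixon's 95% limit, where chance flags about 1 in 20. E8.5 KO3 was the library that stood apart in 6 of them. Its value was the highest for Tdgf1 at 2.21 CPM, Utf1 at 1.76 CPM, Lefty2 at 0.326 CPM, Mesp1 at 0.0651 CPM and Hand1 at 6.06 CPM, genes of epiblast or early mesoderm that were low in the group, and for the crest gene Sox9 at 234 CPM. For Tdgf1, Lefty2 and Mesp1 the other 3 libraries were at 0, so any read is flagged, and the value of Mesp1 is 1 read. E8.5 KO4 stood apart in 3, with the highest value for Hes5 at 186 CPM, Fgf18 at 44.2 CPM and Acvr2b at 228 CPM. E8.5 KO2 stood apart for Mesp2, with 0 CPM against 0.365 to 0.412 CPM in the others.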

How the results depend on the processing

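The count of genes higher at E8.5, 1736, became 905 with a mean of at least 10 CPM, 3004 with the replicate block, 2807 with the length trend removed and 514 without E8.5 KO1 and KO2. With 1 library left out it ranged from 482 to 2907. The count lower, 2431, became 1210 with the 10 CPM filter and 1148 without E8.5 KO1 and KO2, and ranged from 748 to 3367 with 1 library left out. The split of higher against lower was 2536 to 2263 under quantile normalisation and 1256 to 2632 with total counts only. Epiblast genes lower numbered 22 without E8.5 KO1 and KO2 and 13 to 36 with 1 library left out. Neural tube counts ranged from 15 to 26 and crest counts from 11 to 19 over all alternatives. With edgeR medians were farther from 0, at -4.85 for core pluripotency, 3.61 for neural tube and 3.17 for plate border genes. Genes called for the difference between genotypes numbered 8 with DESeq2, 5 with no filter, 1 with the length trend removed and 0 to 105 with 1 library left out. The replicate numbers were not taken to pair the samples in the main fit. Deviations of same-numbered libraries correlated at -0.118 for KO1 and -0.085 for KO2. The deviations of E7.5 KO1 and KO2 mirror each other, so these values cannot show whether the numbers pair. With the replicate block 3138 genes were lower, and the difference was called for 0 genes. Directions that reversed belong to genes not called. With 1 library left out, log2 changes ranged from -0.468 to 0.256 for Lin28a, -0.079 to 0.327 for Trim71, -0.002 to 0.357 for Lats2, -1.194 to 0.249 for Pou3f1 and -0.341 to 0.786 for Olig2. Lin28a was at 0.117 with edgeR, 0.074 with DESeq2 and 0.07 with the length trend removed. With total counts Trim71 was at -0.102 and Lats2 at -0.008. Without both E8.5 KO1 and KO2 Trim71 was at -0.001 and Olig2 at -0.324. The causes were not tested. Removing the length trend from the seed-match and genotype-difference results, the code number block, and the other tools for the WT change, were chosen after seeing the data. Few E7.5 libraries limit what can be called.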
